A study of Mus musculus with 2 samples.

Results

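The 10 genes described here encode the major histocompatibility complex (MHC) class II antigen presentation system of the mouse: the classical chains H2-Aa, H2-Ab1 and H2-Eb1, the invariant chain Cd74, the loading chaperone genes H2-DMa, H2-DMb1 and H2-DMb2, the modulator genes H2-Oa and H2-Ob, and the transactivator Ciita. They were taken by symbol, matched to the Entrez Gene number of each row, and all 10 were found in both libraries, among 18090 genes listed in either. RNA was sequenced from dendritic cells (DC) grown from C57BL/6 bone marrow for 6 days with 10 ng/ml GM-CSF and 1 ng/ml IL-4, in 1 library labelled immature and 1 labelled mature. The mature cells, read here as those called sample 2 in the protocol, also had lipopolysaccharide (LPS, a bacterial cell wall component) at 100 ng/ml for 24 h in the same growth factors. It is not stated whether the immature cells had the extra time in culture, nor how many animals were pooled. Both libraries came from cells sorted on CD86 and on I-Ab, the protein made from H2-Aa and H2-Ab1, with gates that are not given, so the levels of these genes are not independent of how the cells were chosen.

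Class II molecules present peptides from endosomes to CD4 T cells. An alpha and a beta chain pair in the endoplasmic reticulum with the invariant chain, which blocks the groove and steers the complex to endosomes, where proteases cut it down to a fragment called CLIP. The DM heterodimer then exchanges CLIP for peptide, and the DO heterodimer, best known from B cells, holds DM back. Transcription of these genes depends on CIITA, which does not bind DNA itself but docks on factors held at paired promoter elements, the X box (bound by RFX and CREB proteins) and the Y box (bound by NF-Y). Maturing DC are known to move class II from endosomes to the cell surface, to slow its turnover and to silence Ciita.

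The immature library had 7.56 M and the mature library 8.07 M uniquely placed reads counted to genes. Levels are in RPKM (reads per kilobase of gene model and per 1000000 counted reads), and a gene of 1000 bases with 3 reads would stand at 0.397 RPKM in immature and 0.372 RPKM in mature DC. With 1 library per state there was no replicate error and no test was made: every difference is one between these 2 libraries. Beside each ratio stands its exact 95% interval from the read counts, which takes every read as an independent molecule and holds counting error alone. Of the dendritic cell markers, 12 of 13 reached 1 RPKM in 1 of the libraries. Of these, 6 were at least 2-fold higher and 3 at least 2-fold lower in the mature library. The shares over all genes that reached 1 RPKM were 9.05% and 11.3%. Cd86 stood at 152 RPKM in the mature library against 26.1 RPKM in the immature one. The cells were sorted on its protein, so this level is not independent of how they were chosen. Itgax, which encodes CD11c, stood at 148 RPKM against 407 RPKM. Cd209a had 0 reads in the mature library and 65 in the immature one.

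The paired promoter elements can be read in the sequences of several members, shown here because these genes differ in how they stood between the states although several of them carry the same arrangement. RefSeq promoter windows on assembly GRCm38.p6, which is not the build of the files (mm8), were found for 7 of the 10 members; those of H2-Ab1, Cd74 and Ciita were not used here. The windows run 5′ to 3′ on the strand of the gene, from 160 to 21 bases before the start site, and lie at chr17:34305707-34305846 (plus strand) for H2-Eb1, chr17:34153031-34153170 (plus) for H2-DMb1, chr17:34145089-34145228 (plus) for H2-DMb2, chr17:34238745-34238884 (plus) for H2-Ob, chr17:34287844-34287983 (minus) for H2-Aa and chr17:34092219-34092358 (plus) for H2-Oa. Capitals mark matches on either strand to 3 motifs: AACNNATG, an X box type motif, GATTGG, the core of the Y box (CCAATC when read on the opposite strand), and TGACGTCA, the element bound by CREB.
H2-Eb1: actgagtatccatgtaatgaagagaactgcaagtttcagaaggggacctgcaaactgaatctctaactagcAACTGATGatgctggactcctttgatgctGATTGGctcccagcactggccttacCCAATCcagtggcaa
H2-DMb1: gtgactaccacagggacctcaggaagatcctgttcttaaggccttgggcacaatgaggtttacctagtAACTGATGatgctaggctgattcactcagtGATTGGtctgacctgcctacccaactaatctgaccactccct
H2-DMb2: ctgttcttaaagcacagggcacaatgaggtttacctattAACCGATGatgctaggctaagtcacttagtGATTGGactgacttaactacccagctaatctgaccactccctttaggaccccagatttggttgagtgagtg
H2-Ob: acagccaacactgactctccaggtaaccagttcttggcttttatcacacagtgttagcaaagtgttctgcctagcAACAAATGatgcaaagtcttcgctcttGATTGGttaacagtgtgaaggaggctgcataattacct
H2-Aa: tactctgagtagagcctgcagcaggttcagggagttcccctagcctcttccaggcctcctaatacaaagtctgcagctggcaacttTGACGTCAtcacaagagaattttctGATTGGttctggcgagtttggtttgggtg
H2-Oa: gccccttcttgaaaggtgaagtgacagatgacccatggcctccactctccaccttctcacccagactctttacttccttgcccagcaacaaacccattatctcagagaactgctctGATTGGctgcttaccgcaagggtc

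In H2-Eb1, H2-DMb1, H2-DMb2 and H2-Ob the X-type motif was followed on the same strand by the Y core, with 29, 30, 30 and 27 bases from the first base of one to the first base of the other. H2-Aa held the CREB element and the Y core, and H2-Oa the Y core alone among these motifs. The letters of the X-type motif were chosen after these windows were read. In the 250 bases before each of 32851 RefSeq start sites, the X-type motif occurred in 7.71%, the Y core in 14.6% and the CREB element in 1.55%. An X-type motif followed by a Y core within 60 bases on 1 strand occurred in 49 windows (0.149%), among them those of these 4 members and of H2-Eb2, a further class II beta gene. Neither of the 2 windows of H2-DMa held the X-type motif, and 1 held a Y core, 199 bases before the start. Whether H2-DMa is read from either of these start sites in these cells was not tested. No lack of the arrangement at this gene can therefore be read from them. A match is a description of letters and not a measured binding site. Likewise, a window without a match to these letters, such as those of H2-Aa and H2-Oa for the X-type motif, may still hold an X box.

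**Figure D1:**
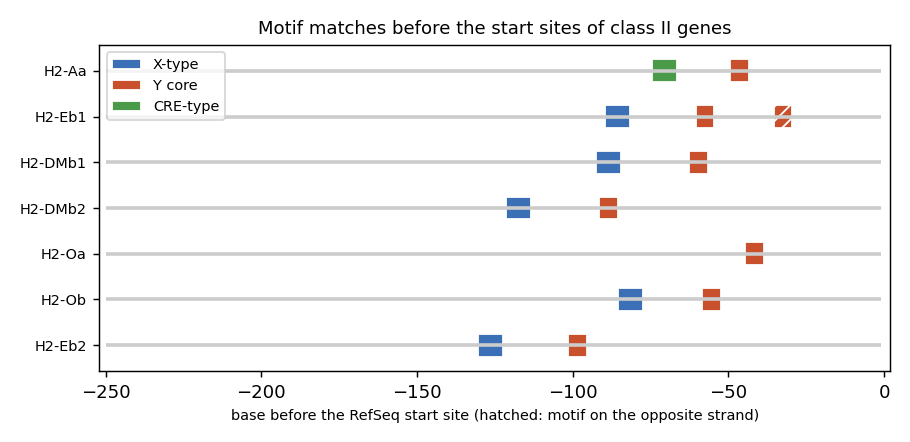
Motif matches in the 250 bases before the RefSeq start sites of 6 members and of H2-Eb2; the x axis is the distance in bases from the start site, and colours give the motif. In H2-Eb1, H2-DMb1, H2-DMb2, H2-Ob and H2-Eb2 an X-type match precedes a Y core by 27 to 30 bases.

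The classical chains were among the most abundant transcripts of both libraries, and each differed by 1.28-fold or less between them. H2-Aa (Entrez Gene 14960), the alpha chain of I-A, stood at 1159 RPKM (9502 reads) in immature and 1260.4 RPKM (11031 reads) in mature DC, a ratio of 1.09 (1.06 to 1.12). H2-Ab1 (14961), its beta chain, stood at 1256 RPKM (11333 reads) and 978 RPKM (9419 reads), 1.28-fold lower (1.25 to 1.32) in the mature library. H2-Eb1 (14969), the beta chain of I-E, stood at 655 RPKM (8268 reads) and 732 RPKM (9857 reads), a ratio of 1.12 (1.08 to 1.15). H2-Aa and H2-Eb1 thus stood slightly higher and H2-Ab1 lower in the mature library. The H2-Aa to H2-Ab1 balance went from 0.923 in immature to 1.29 in mature DC, a change of 1.40 (1.34 to 1.45). By RPKM, H2-Aa ranked 35 in immature and 26 in mature DC, H2-Ab1 31 and 28, and H2-Eb1 77 and 48. C57BL/6 mice are known to make no I-E protein because their alpha chain gene H2-Ea is defective and is not listed in either file. H2-Eb1, left without that partner, was still abundant. The beta gene H2-Eb2 had 18 and 14 reads, under 1 RPKM in each library.

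Cd74 (16149), the invariant chain, was the most abundant member and was lower in the mature library. It stood at 5173 RPKM (55988 reads) in the immature library and 2910.0 RPKM (33620 reads) in the mature library, 1.78-fold lower (1.75 to 1.80), and ranked 4 and 6 by RPKM. It took up 0.740% of all counted reads in immature and 0.416% in mature DC (Wilson 95% intervals 0.734 to 0.746 and 0.412 to 0.421). With the summed classical chains at 3069.9 RPKM (immature) and 2969.9 RPKM (mature), Cd74 went from 1.69 times their level to 0.980 times. That balance was 1.72-fold lower (1.68 to 1.76) in the mature library. Together the 10 members took up 1.19% of the counted reads in immature DC and 0.827% in mature DC, and the classical chains alone 0.385% and 0.375%, so that most of the gap lay in Cd74.

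**Figure D2:**
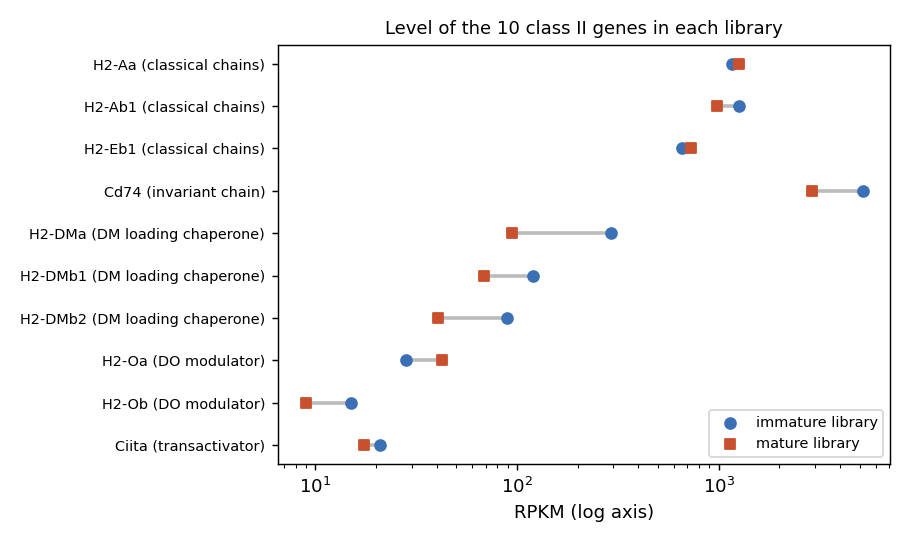
Level of each member in the immature (circles) and the mature library (squares), in RPKM on a log axis, with 1 library per state and no error bars. The classical chains and Cd74 lie between 655 and 5173 RPKM, the DM genes between 40.3 and 291 RPKM, and the DO genes and Ciita between 8.95 and 42.6 RPKM.

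The genes of the DM heterodimer, the chaperone that exchanges CLIP for peptide, were lower in the mature library in all 3 cases. H2-DMa (14998), the alpha chain, stood at 291 RPKM (1729 reads) and 94.6 RPKM (600 reads), a ratio of 0.325 (0.296 to 0.357), and was the lowest of the members relative to the immature library. H2-DMb2 (15000), 1 of a pair of beta chain genes, stood at 89.7 RPKM (533 reads) and 40.3 RPKM (256 reads), a ratio of 0.450 (0.386 to 0.523). H2-DMb1 (14999), the other beta chain gene, stood at 119.9 RPKM (1165 reads) and 68.2 RPKM (708 reads), a ratio of 0.569 (0.518 to 0.626). The order was thus H2-DMa below H2-DMb2 below H2-DMb1. The intervals of H2-DMa and H2-DMb2 did not overlap, while those of the beta chain genes did. Set directly against each other, H2-DMb1 stood at 1.34 times H2-DMb2 in the immature library and 1.69 times in the mature library. That is a change of 1.27 (1.06 to 1.52), an interval that excludes 1. The summed level of the 3 DM genes was 500.4 RPKM in immature and 203 RPKM in mature DC. Within the heterodimer, the alpha chain stood at 1.39 times the summed beta chains in the immature library and 0.871 times in the mature library, a change of 0.627 (0.554 to 0.710).

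The values of the beta chain pair carry a further uncertainty. Their gene models differ in length, with 1285 bases for H2-DMb1 and 786 for H2-DMb2. Of the stretches of 35 bases in the transcripts of H2-DMb1 (GENCODE M21), 29.2% also occur in another gene, all of them in H2-DMb2, and of those of H2-DMb2 34% do. Only uniquely placed reads were counted, and reads covered 83.2% and 83.0% of the length of H2-DMb1 (immature and mature) and 69.0% and 69.5% of that of H2-DMb2, against 99.9% and 99.4% for H2-DMa. The coverage of each beta gene was near equal in the libraries, and a constant loss cancels in their ratio between states but not in their levels. Summed as 1 gene, the pair no longer reached 2-fold. The read length is not given in the sources used here. Transcripts of H2-DMa share 9.06% of such stretches with the neighbouring gene Brd2, and those of H2-Oa 17.7% with BC051537; for the other members the share was 2.42% or less.

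The DO genes went in opposite directions. H2-Oa (15001), the alpha chain of the modulator, stood at 28.2 RPKM (227 reads) in immature and 42.6 RPKM (366 reads) in mature DC, a ratio of 1.51 (1.28 to 1.79), the highest ratio of the members. H2-Ob (15002), the beta chain, stood at 14.95 RPKM (302 reads) and 8.95 RPKM (193 reads), a ratio of 0.599 (0.497 to 0.720). The alpha to beta balance was therefore 1.89 in immature and 4.76 in mature DC, 2.52 times higher (1.96 to 3.25). Summed, DM stood at 11.6 times DO in the immature library and 3.94 times in the mature library, 2.94-fold lower (2.55 to 3.39). The classical chains stood at 6.14 times DM in immature and 14.6 times in mature DC, 2.38 times higher (2.24 to 2.54). These balances are taken within a library, so no scaling between libraries enters them. The levels of DM in them carry the loss of shared reads described for its beta chain genes. H2-Oa and H2-DMa also share stretches with other genes, as given above, and a loss of their reads was not measured.

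Because DO is abundant in B cells, markers of these cells were read beside it. Of 15 B cell markers, 5 reached 1 RPKM in 1 of the libraries, of which 1 was at least 2-fold higher and 0 lower, with a median log2 fold of 0.75. Over all genes that reached 1 RPKM, 9.05% were higher and 11.3% lower. The list summed to 27.6 RPKM in immature and 71.7 RPKM in mature DC, of which Blnk, an adaptor that myeloid cells also express, made up 13.7 and 59.95 RPKM. The defining markers Pax5, Ebf1 and Blk had 2, 7 and 2 reads in the immature library and 0 in the mature library. Cd79a had 7 reads (immature) and 3 (mature), and Ms4a1 10 and 1. The other way went Cd79b with 4 and 14 reads, a ratio of 3.28 (1.03 to 13.7), and Spib with 41 and 97, a ratio of 2.22 (1.52 to 3.28). Cd22 had 231 and 149 reads. The list does not measure the share of B cells, and the part of such cells in the values of H2-Oa and H2-Ob was not tested.

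**Figure D3:**
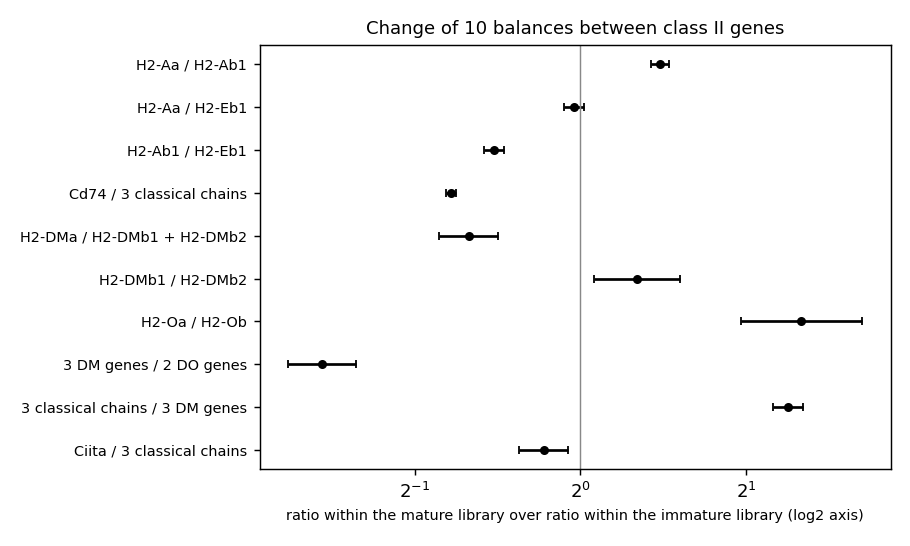
Change of 10 balances between members, as the RPKM ratio within the mature library over that within the immature library on a log2 axis; points are values and bars their 95% counting intervals. The DM to DO balance lies lowest at 0.340, and the H2-Oa to H2-Ob balance highest at 2.52.

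Ciita (12265), the transactivator on which these promoters depend, stood far below the classical chains in both libraries and differed little between the libraries. By RPKM it ranked 3608 in immature and 4097 in mature DC. It stood at 20.96 RPKM (817 reads) in immature and 17.4 RPKM (724 reads) in mature DC, 1.20-fold lower (1.09 to 1.33), with reads over 96.5% and 97.8% of its length. Relative to the summed classical chains its level was 0.00683 in immature and 0.00586 in mature DC, a change of 0.858 (0.775 to 0.95). The ratios of the 10 members ran from 0.325 for H2-DMa to 1.51 for H2-Oa, with Ciita at 0.830. In the order of ratios, the counting intervals of Cd74 and H2-DMb1, H2-DMb1 and H2-Ob, H2-Ab1 and Ciita, and H2-Aa and H2-Eb1 overlapped. Those of the other neighbours did not. Overlap of separate intervals is not a test of a difference, and the order of the ratios was not tested.

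By a call of at least 2-fold on log2 of RPKM + 1, a scale that understates changes of low genes, 2 of the 10 members (H2-DMa and H2-DMb2) were lower in the mature library, 0 were higher and 8 lay within 2-fold. Of 11547 genes that reached 1 RPKM in a library, 11.3% were lower and 9.05% higher by the same call, 20.4% in all, so 2 of 10 is close to the share over all genes and is no result about the members. The median log2 fold of the members was -0.52, beside 0.026 over all genes compared. The interval of H2-DMb2 crosses 2-fold, and that of H2-DMa lies wholly beyond it. Of the scalings tried, the one that moved the values of all genes by more than 0.1 was that to a common sum of RPKM without the 50 most abundant genes, which raised every log2 ratio by 0.11. Under the 4 scalings tried each member stayed on its side of equality. Ratios ran from 1.06 to 1.18 for H2-Aa, from 0.758 to 0.843 for H2-Ab1 and from 1.09 to 1.21 for H2-Eb1. Those of Cd74 ran from 0.548 to 0.609, and those of H2-DMa from 0.317 to 0.352.

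**Figure D4:**
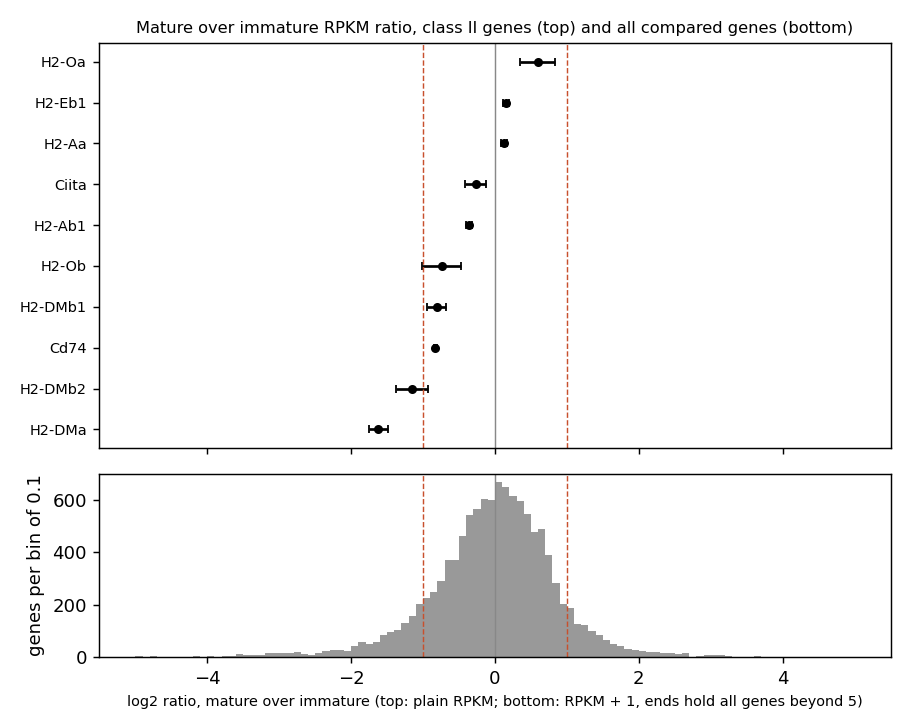
Top, plain RPKM ratio of each member, mature over immature, on a log2 scale with its 95% counting interval; bottom, the log2 ratio of RPKM + 1 for the 11547 genes compared, in bins of 0.1. Dashed lines mark 2-fold, which H2-DMa passes with its whole interval and H2-DMb2 with its value.

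Markers of other cells differed between the libraries as well. Of 13 granulocyte and precursor markers, 12 were at least 2-fold lower in the mature library, none was at 0, and their summed level was 7453 RPKM in immature and 1276 RPKM in mature DC. Of 12 macrophage and monocyte markers, 6 were lower and 1 higher, with sums of 1474 and 1017 RPKM. Over all genes compared, 11.3% were lower and 9.05% higher by the same call. Plasmacytoid DC markers summed to 102 and 193 RPKM, mostly Bst2, an interferon-inducible gene, with Siglech at 1 and 2 reads, T and NK cell markers to 4.44 and 7.2 RPKM, and red cell and stroma markers to 38.4 and 17.9 RPKM, mostly Pecam1. What part such cells have in the values of the class II genes was not tested, and fewer cells of a type and less RNA per cell cannot be told apart in bulk RNA.

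The factors that hold CIITA at the promoter lay near equal between the libraries. Of 15 genes of this group, 0 were called higher, 0 lower, and the median log2 fold was 0.13. Among all genes compared, 9.05% were called higher and 11.3% lower. The RFX subunit genes Rfx5, Rfxank and Rfxap, whose products form the complex on the X box, had 8.21, 5.89 and 7.99 RPKM in the immature library and 10.9, 5.99 and 9.47 RPKM in the mature one, with ratios of 1.33 (1.13 to 1.57), 1.02 (0.818 to 1.26) and 1.19 (0.938 to 1.5). The NF-Y subunit genes Nfya and Nfyb had ratios of 1.10 (1.00 to 1.21) and 1.09 (0.914 to 1.29), and Nfyc, the remaining subunit, 0.663 (0.565 to 0.778). Among the most abundant were Smarca4, a chromatin remodeller, at 54.0 and 38.7 RPKM, and Ep300, a histone acetyltransferase, at 24.4 and 38.0 RPKM.

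Genes that act upstream of Ciita went in both directions. Of 19 compared, 5 were at least 2-fold higher and 2 lower in the mature library, with a median log2 fold of 0.14. Over all genes compared 9.05% were higher and 11.3% lower, so the count of lower genes is near that share. Irf8, a lineage factor of DC, stood at 37.2 and 350.4 RPKM, a ratio of 9.42 (8.76 to 10.1). Jak2, a kinase of the interferon-gamma receptor, had a ratio of 2.39 (2.31 to 2.47), and Usf1, an E-box factor, 2.06 (1.81 to 2.35). Prdm1, which encodes Blimp-1, a repressor of Ciita, stood at 8.07 and 17.3 RPKM, a ratio of 2.14 (1.87 to 2.45). Spi1, which encodes PU.1, the myeloid master factor, was lower at 278 and 120.1 RPKM, a ratio of 0.432 (0.404 to 0.461), and Myb, of progenitors, stood at 2.55 and 0.362 RPKM, a ratio of 0.142 (0.0651 to 0.278).

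In the endosome, where the invariant chain is cut and peptides are made, 10 of 12 genes for proteases, the thiol reductase and inhibitors lay within 2-fold, with a median log2 fold of 0.31. By the same call 20.4% of all genes compared lay at least 2-fold apart, so this count is near the share over all genes. Lgmn, the asparagine endopeptidase, stood at 144 and 373 RPKM, a ratio of 2.59 (2.46 to 2.73), and Ctsc, a dipeptidyl peptidase, at 408 and 119 RPKM, a ratio of 0.292 (0.279 to 0.306). The most abundant were Ctsd, an aspartic protease, at 2611 and 2385 RPKM, Cst3, the cathepsin inhibitor cystatin C, at 2587 and 1972 RPKM, and Ctsz, a carboxypeptidase, at 1509 and 2504 RPKM. Of these, Ctsz was higher and Cst3 lower in the mature library, each within 2-fold. Of 15 genes for endosome membranes, tetraspanins and transport, 0 were called in either direction and the median log2 fold was -0.27; Lamp1, a lysosomal membrane protein, stood at 829 and 873 RPKM, Rab7, a GTPase of late endosomes, at 760.4 and 574 RPKM, and the tetraspanin Cd9 at 494 and 334 RPKM.

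Of 9 genes for surface turnover of class II, 1 was called higher and 0 lower, with a median log2 fold of 0.28. With 9.05% of all genes compared called higher, 1 of 9 is near the share over all genes. March1 (now Marchf1), the ubiquitin ligase that sends class II to lysosomes, stood at 34.6 and 28.9 RPKM, a ratio of 0.836 (0.767 to 0.910), close to that of Ciita. Cd83, which is known to oppose that ligase, stood at 20.2 and 179 RPKM, a ratio of 8.83 (7.88 to 9.92). Il10rb, a chain of the receptor for IL-10, stood at 45.5 and 58.4 RPKM, and Tsg101, a sorting factor for ubiquitinated cargo, at 48.4 and 55.3 RPKM.

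Of the members, 8 lie in the class II region of chromosome 17, Cd74 on chromosome 18 and Ciita on chromosome 16. In the order of RefSeq genes with reads from H2-Oa to H2-Eb2, the DM genes are followed directly by genes of the class I pathway, and these stood on the other side of equality. Psmb9, an immunoproteasome subunit, had a ratio of 1.67 (1.46 to 1.90), Tap1, a subunit of the peptide transporter, 3.25 (3.01 to 3.51), Psmb8, also of the immunoproteasome, 1.32 (1.24 to 1.39), and Tap2, the partner of Tap1, 1.58 (1.47 to 1.71). Past them come H2-Ob at 0.599, H2-Ab1 at 0.779, H2-Aa at 1.09 and H2-Eb1 at 1.12. Of 14 genes compared on the list of further class II genes and neighbours of the region, 1 (Tap1) was called higher and 0 lower, and the median log2 fold was 0.38. Beside 9.05% higher over all genes compared, 1 of 14 is close to the general share. Brd2, between H2-Oa and H2-DMa, had 34 and 70 reads over 8.38% and 8.89% of its length.

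**Figure D5:**
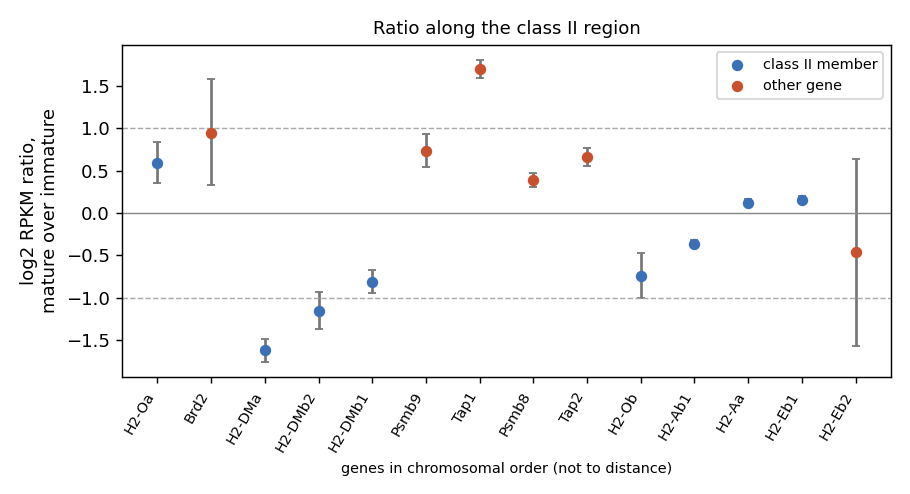
Log2 ratio of RPKM, mature over immature, for the genes with reads along the class II region, in chromosomal order and not to distance; bars are 95% counting intervals. The 3 DM genes lie below equality and the 4 class I pathway genes next to them above it.

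The class I counterparts of these genes stood higher in the mature library. Of 7 class I genes, 4 were at least 2-fold higher and 0 lower, with a median log2 fold of 1.15. The shares over all genes compared were 9.05% higher and 11.3% lower. H2-K1 and H2-D1, which encode heavy chains, went from 441 and 382 RPKM in the immature to 1492 and 1365 RPKM in the mature library, and B2m, the light chain, from 1950.2 to 4334 RPKM. Class I heavy chain genes share sequence, and reads covered 75.7% of H2-D1 in the immature library, so its value is uncertain. Nlrc5, the class I transactivator and a relative of Ciita, stood at 5.62 and 9.90 RPKM, a ratio of 1.76 (1.53 to 2.04), while Ciita stood at 0.830 (0.750 to 0.919).

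The genes nearest to 3 members in both libraries were sought by Euclidean distance in log2 of RPKM + 1 over the 2 libraries, too few to show a shared pattern. Nearest to Ciita were Arhgef3, 1700017B05Rik and Pcyox1, at distances of 0.018 to 0.033. Nearest to Cd74 were Actb at 5872 and 2704 RPKM, Psap at 4938 and 4106 RPKM and Ctsd, at distances of 0.21 to 1.03. Nearest to H2-DMa were Coro1a at 295 and 89.1 RPKM, Cybb at 313 and 96.7 RPKM and Slc25a5 at 295 and 107 RPKM, at distances of 0.086 to 0.18.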

How the data were processed

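Each deposited file gives, per the file headers, the count of uniquely placed reads of each gene (unnormalised), its model length, how many percent of that length reads covered, and RPKM. RPKM was made by the authors from those counts, and the formula held within a relative deviation of 1.07e-07. Genes without a read are left out of a file and were taken as 0. The submitters' processing notes name the build mm8, but no aligner, counter, annotation or strand setting is stated in the sources. RefSeq (GRCm38.p6) gave symbols for 16220 of 18090 IDs.

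Ratios of RPKM carry exact Clopper-Pearson 95% intervals of the read split. Balances of single genes carry an exact conditional interval of the odds ratio, and balances with sums an interval from Poisson variances. Calls used a pseudocount of 1 RPKM, a filter of 1 RPKM and 2-fold. With 1 library per state no test was made. Alternatives were pseudocounts, filters, scalings (edgeR 4.0.16 TMM and others), call rules and a sum of H2-DMb1 and H2-DMb2. Python 3.11.15 and scipy 1.17.1 were used. Calls and ratio intervals were tried on counts simulated with Poisson error alone. That setting holds no variation between replicates, so it cannot show how calls or intervals fare with such variation.

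The members, the 7 companion lists and the 7 marker lists were chosen with earlier results of these data known. Named were all members, each companion gene at least 2-fold apart, the 3 most abundant of each list, genes fixed by name and the nearest genes. Markers and genes beside sequence matches were named after their values were seen. Some genes that the rule names are not reported here.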

Additional observations from a re-analysis of the deposited data

How the results depend on the processing

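The counts and medians were recomputed under 12 alternatives, of which 2 changed the count of members called lower because of H2-DMb2: the count was 1 in place of 2 when the counting interval had to lie wholly beyond 2-fold, and 1 when H2-DMb1 and H2-DMb2 were summed, which also brought the members' median log2 fold from -0.52 to -0.36. A call at 1.5-fold gave 5 members lower (H2-DMa, H2-DMb2, Cd74, H2-DMb1 and H2-Ob). It also gave 24 companion genes higher in place of 11 and 11 lower in place of 3, and over all genes 2474 higher in place of 1045 and 2503 lower in place of 1310. A pseudocount of 5 RPKM gave 469 genes higher and 686 lower over all genes. H2-DMa was called lower as reported and under all 12 alternatives, and 0 members were called higher under any. The remaining 70 of 80 recomputed values stayed within 1.5 times their count or within the counting interval of the median. These values do not include the ratios of single members. Ratios of H2-Aa, H2-Ab1, H2-Eb1 and Cd74 left their counting intervals under scaling to a common sum of RPKM, with or without the 50 most abundant genes. That of Cd74 also did so under TMM. Depth limits H2-Oa and H2-Ob most, with 193 to 366 reads per library. No paired analysis was possible because each state has 1 library, and for the same reason no replicate could be left out.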
